A study of Homo sapiens with 24 samples.

Results

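The intervals described here are the long non-coding RNA (lncRNA) intervals of chromosomes 16, 17, 20 and 22, human chromosomes with many genes per unit length. They are 12541 of the 175946 annotated non-coding features counted in this study: 3656 on chromosome 16, 4480 on chromosome 17, 2412 on chromosome 20 and 1993 on chromosome 22. An interval was taken if the deposited annotation classed it as lncRNA, if it spanned at most 200000 bp, and if its name came from 1 of 3 lncRNA catalogues. Names that start with lnc- (9786 intervals) follow LNCipedia and carry the symbol of a neighbouring gene, names that start with NONHSAG (1627) follow NONCODE, and names that start with HSALNG (1128) follow LncBook. Members were chosen by these annotation columns alone, but the 4 chromosomes were proposed with the small RNA and ATAC fold changes of the same libraries known, so medians over the set are given as descriptions. The widest interval inside the limit spanned 198930 bp, the narrowest left out spanned 203459 bp, and 76 intervals on these chromosomes were left out for width. Widths ran from 145 to 198930 bp, with a median of 3104 bp. Many intervals are alternative models of 1 locus: the 12541 intervals carry 8093 names and fall into 6161 groups of overlapping intervals, of which 4197 hold a single interval and the largest holds 54. Reads in an overlap count towards each interval there, so counts of intervals are given with the number of overlap groups where results turn on them. An annotated protein-coding gene overlapped 6257 of the intervals (49.9%): 2725 lay on the strand of that gene, 1679 on the opposite strand, 245 met genes on both strands, and for 1608 the strand of the gene was not in the table used. An annotated RNA of another class, such as a small nucleolar RNA or a microRNA, overlapped 1178 of them (9.39%). No limit was set on its length. For example, 1 annotation of the signal recognition particle RNA class spans chr17:28419112-28814962 and is wider than the intervals it overlaps.

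The cells were HEK293, an established human embryonic kidney line, with the genotype label wild type. They overexpressed eGFP (the control, GFP below), LMNA, LMNB1 or LMNB2, which encode the lamins of the A type and of both B types. RNA enriched for small RNAs was sequenced in 12 libraries and open chromatin was profiled by ATAC-seq in another 12, with 3 replicates per group and assay. The promoter and vector of the transgenes, the time after their delivery and whether the replicates were separate cultures are not given in the sources used here, so p-values measure the spread between these libraries, which may be technical. All 4 groups therefore carry an overexpressed protein, and no untreated cells are among them. The comparisons asked whether short RNA and chromatin accessibility at these intervals differed from GFP under each lamin, and from one lamin to another.

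Long non-coding RNAs are transcripts without a long open reading frame. Many are antisense to, or share a start region with, a coding gene, and many catalogue entries are spliced or retained fragments of coding genes. Several classes of short stable RNA are made from inside such units: small nucleolar RNAs (snoRNAs), which guide chemical modification of ribosomal RNA, are cut out of introns of host genes, often ribosomal protein genes. Lamins form the filament layer under the inner nuclear membrane, and the chromatin that touches it is mostly poor in genes, whereas gene-rich chromosomes tend to lie in the nuclear interior.

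The start regions of 5 genes are shown because intervals of the set that overlap them recur in the results. RPL3 is the host of the snoRNA behind lnc-PDGFB-2, ZFAS1 is the snoRNA host under NONHSAG031976.2, GPS2 lies under lnc-NEURL4-1, TMEM11 starts head to head with lnc-DHRS7B-1, and CTCF starts inside lnc-AGRP-1. Each sequence is the RefSeq GRCh38.p14 window from 250 bases before to 50 bases after the annotated start, 5′ to 3′ on the strand of the gene, and capitals mark the GC box (GGGCGG, or CCGCCC for the other strand).
RPL3 promoter, chr22:39319574-39319873, minus strand: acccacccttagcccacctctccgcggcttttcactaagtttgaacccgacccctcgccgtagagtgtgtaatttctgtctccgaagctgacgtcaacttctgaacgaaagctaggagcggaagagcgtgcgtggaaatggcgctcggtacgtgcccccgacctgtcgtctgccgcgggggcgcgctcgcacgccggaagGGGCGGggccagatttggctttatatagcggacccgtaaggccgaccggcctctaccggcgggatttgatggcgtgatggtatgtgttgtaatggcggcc
ZFAS1 promoter, chr20:49278392-49278691, plus strand: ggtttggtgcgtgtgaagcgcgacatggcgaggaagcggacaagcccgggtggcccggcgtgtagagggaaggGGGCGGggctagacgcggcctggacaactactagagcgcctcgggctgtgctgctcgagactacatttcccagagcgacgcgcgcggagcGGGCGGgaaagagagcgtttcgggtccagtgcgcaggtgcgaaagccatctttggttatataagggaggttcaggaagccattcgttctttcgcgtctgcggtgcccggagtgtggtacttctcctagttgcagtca
GPS2 promoter, chr17:7315311-7315610, minus strand: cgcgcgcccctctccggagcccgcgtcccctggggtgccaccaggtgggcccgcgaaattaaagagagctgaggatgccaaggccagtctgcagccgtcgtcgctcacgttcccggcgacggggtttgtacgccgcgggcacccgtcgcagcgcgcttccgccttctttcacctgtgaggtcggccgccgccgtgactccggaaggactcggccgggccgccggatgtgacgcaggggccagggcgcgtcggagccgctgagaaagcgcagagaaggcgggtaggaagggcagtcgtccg
TMEM11 promoter, chr17:21214112-21214411, minus strand: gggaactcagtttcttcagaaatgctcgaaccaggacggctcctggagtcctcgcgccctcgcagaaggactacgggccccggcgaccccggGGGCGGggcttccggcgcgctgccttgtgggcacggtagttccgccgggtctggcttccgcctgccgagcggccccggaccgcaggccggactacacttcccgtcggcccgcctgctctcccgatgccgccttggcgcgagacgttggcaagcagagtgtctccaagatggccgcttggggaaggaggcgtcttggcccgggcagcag
CTCF promoter, chr16:67562276-67562575, plus strand: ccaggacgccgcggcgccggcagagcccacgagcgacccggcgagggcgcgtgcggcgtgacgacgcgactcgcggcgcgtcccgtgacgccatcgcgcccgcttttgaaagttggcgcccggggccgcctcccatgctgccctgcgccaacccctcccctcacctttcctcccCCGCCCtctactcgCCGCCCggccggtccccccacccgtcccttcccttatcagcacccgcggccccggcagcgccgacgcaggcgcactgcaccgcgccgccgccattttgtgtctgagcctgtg
The windows of ZFAS1 and CTCF held 2 GC boxes each, those of RPL3 and TMEM11 held 1 each, and that of GPS2 held 0. Of the 35116 RefSeq windows of this length, 45.0% held a GC box on either strand. The RPL3 window also held TATAAA read on either strand (1 match), as did 11.5% of all windows. G and C made up 61.0% of the RPL3 window, 62.0% of ZFAS1, 70.0% of TMEM11, 71.0% of GPS2 and 75.3% of CTCF, against a median of 58.7% over all windows. A match is a description of these letters and not evidence of binding.

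Small RNA totals ran from 133 to 195 M counts per library, of which 2.16% to 3.45% fell on these intervals, and ATAC totals from 156 to 290 M counts, of which 2.99% to 3.79% did. Overexpression was visible in the intervals at the lamin loci. All 8 tested small RNA intervals at LMNB2 were higher in the LMNB2 libraries (log2 fold change 6.22 to 9.77), as were 3 of 5 at LMNB1 in the LMNB1 libraries (up to 7.60). At LMNA the single tested small RNA interval gave a log2 fold change of -0.09, and whether it lies in the overexpressed sequence was not tested. By ATAC 1 of 6 windows at LMNA, 3 of 6 at LMNB1 and 2 of 8 at LMNB2 passed the test, with log2 fold changes up to 8.65, 9.90 and 10.9. All 8 windows at LMNB2 lay at 8.71 to 10.9, including those that did not pass. The windows called higher in the whole ATAC assay also numbered 1 for LMNA, 3 for LMNB1 and 2 for LMNB2. The share of ATAC counts on the mitochondrial chromosome was 39.9% to 47.5% in GFP, 39.4% to 44.1% in LMNA, 32.8% to 34.1% in LMNB1 and 24.5% to 30.7% in LMNB2. Its part in the ATAC results was not tested.

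Among the small RNA libraries GFP replicate 3 and LMNA replicate 3 stood apart. Features at 5 or more times the median of the 12 libraries (after adding 0.05 CPM to each; CPM are counts scaled to a fixed library total after adjustment by the trimmed mean of M-values, TMM) numbered 160 of 33893 tested in GFP replicate 3, 102 in LMNA replicate 3 and 27 in LMNA replicate 1, against 0 to 8 in each of the other 9 libraries. They included 5 of the tested intervals described here in GFP replicate 3 and 4 in LMNA replicate 3. The GFP libraries also had the widest scaling factors, 0.631, 0.905 and 1.31. With both libraries left out, an alternative chosen after seeing the data, 145 members of the set were called for LMNB2 against GFP in place of 63, 15 for LMNA in place of 0, 5 for LMNB1 in place of 0, and 127 in the joint test of the lamins in place of 30 (the tests are described with each comparison). Calls over all tested features rose as well: to 2506 from 901 for LMNB2, to 305 from 0 for LMNA and to 81 from 13 for LMNB1. The shift of the set against all features, given below as 0.27 for LMNB2 on the log2 scale, was 0.26 with both libraries left out.

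Few of these intervals gave short RNA in quantity. No read was counted in any of the 12 small RNA libraries for 1379 of the 12541 intervals, and 2295 (18.3%, in 1082 overlap groups) passed the filter on low counts, against 19.3% of all features. The median tested interval had a mean of 16.8 counts per library. Intervals that overlap an annotated RNA of another class took 98.6% of all counts on the set, and the 10 intervals with most counts took 69.1%. By ATAC 12349 intervals passed (98.5%, against 93.1% of all features), with a median of 171 counts per library, and the top 10 took 8.28% of counts.

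The members described first are among the 2 with the highest small RNA levels on their chromosome, taking at most 1 per overlap group, and they lie over stable small RNAs. On chromosome 17, lnc-LINC00854-1 (chr17:43221392-43306001) spans an annotated array of copies of RNU2-1, the U2 RNA of the spliceosome, with 2324, 1904 and 1588 CPM in the GFP libraries, 2543, 2046 and 2378 CPM under LMNA, 1900, 2399 and 2028 under LMNB1, and 2394, 1964 and 2206 under LMNB2. The ranges of all 4 groups overlapped, and the copies share sequence, so that reads cannot be assigned to 1 of them. On chromosome 22, lnc-PDGFB-2 (chr22:39317371-39319617, inside RPL3) was at 2168, 1389 and 1294 CPM in GFP, 2087, 2027 and 1878 with LMNA, 1640, 1340 and 1408 with LMNB1, and 1291, 1486 and 1261 with LMNB2. GFP spanned nearly the whole range of the lamins. SNORD43, a snoRNA in an intron of RPL3, made up 99.98% of that level. The next member on chromosome 17, NONHSAG021328.2 at the ribosomal protein gene RPL23A (chr17:28720005-28720695), was at 1129, 627 and 417 CPM in GFP and at 497 to 770 CPM in the 9 lamin libraries, and SNORD42B made up 99.99% of it. On chromosome 20, NONHSAG031976.2 (chr20:49276773-49295538) covers ZFAS1 and was at 838, 415 and 339 CPM in GFP and at 426 to 605 CPM in the lamin libraries. Its level came from SNORD12 (49.1%), SNORD12B (34.7%) and SNORD12C (15.97%). For both, GFP replicate 1 was above all lamin libraries and GFP replicate 3 below all of them, so GFP spanned the lamin groups.

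The remaining members of high level also lay over short stable RNAs. On chromosome 22, lnc-SERHL2-4 (chr22:42614889-42615668) holds RNU12, the U12 RNA of the minor spliceosome, which made up 99.97% of it, and was at 212, 215 and 233 CPM in GFP and 257, 274 and 280 CPM in LMNB2, without overlap between these 2 groups. Its log2 fold change of 0.30 ± 0.23 (SE) for LMNB2 did not pass the test (edgeR adjusted p = 0.498). On chromosome 16, NONHSAG020350.2 at the ribosomal protein gene RPL13 (chr16:89560687-89563052) was at 268, 72.9 and 80.9 CPM in GFP, and SNORD68 made up 99.0% of it. GFP replicate 1 thus stood above all other libraries, whose highest value was 165 CPM. The other member named on chromosome 16, NONHSAG019270.2 (chr16:34160039-34175517), was at 15.8, 18.2 and 36.6 CPM in GFP and lies across an annotated small-subunit ribosomal RNA sequence (99.1% of its level). On chromosome 20, NONHSAG031749.2 (chr20:38420565-38435402) holds snoRNAs of the SNORA71 family and was at 7.49, 8.05 and 7.63 CPM in GFP and 11.8, 13.4 and 11.3 CPM in LMNB2. LMNA (11.6, 10.1 and 9.64 CPM) and LMNB1 (8.39, 8.66 and 8.17 CPM) also lay above GFP, and LMNA overlapped LMNB2. LMNB2 did not overlap GFP, but its log2 fold change of 0.66 ± 0.18 (SE) missed the threshold (edgeR adjusted p = 0.0618). None of these 8 members was called for any lamin.

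**Figure D1:**
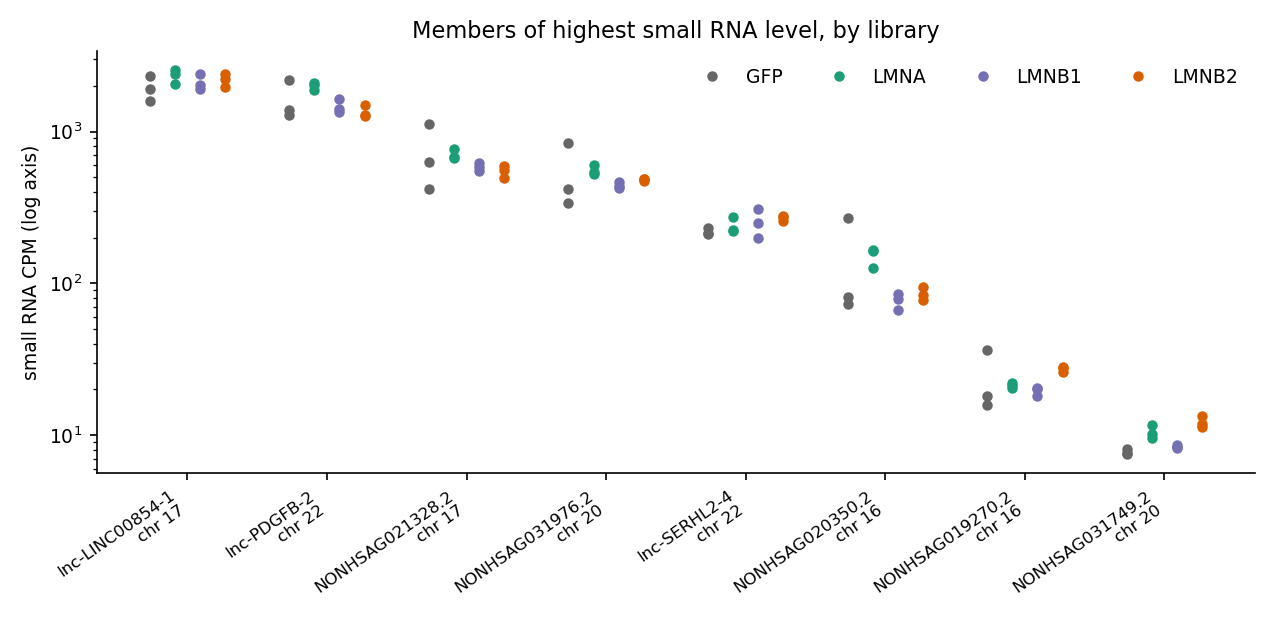
Small RNA level (CPM, log axis) of the 2 members of highest level on each of chromosomes 16, 17, 20 and 22, with 1 point per library and colours for the GFP, LMNA, LMNB1 and LMNB2 groups (3 libraries each). GFP replicate 1 stands out for NONHSAG020350.2 (268 CPM) and GFP replicate 3 for NONHSAG019270.2 (36.6 CPM).

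Open chromatin at the set was concentrated at start regions of coding genes. The ATAC windows are the same intervals, extended a little on each side. Windows that overlap a RefSeq coding promoter (1902 windows) had a median of 0.709 CPM per kb over the 12 ATAC libraries, and the other 10447 had a median of 0.131 CPM per kb. The highest level per length was that of lnc-GRAP-1 (chr17:19063424-19064161), which holds copies of SNORD3B, a U3 snoRNA of ribosomal RNA processing, with 27.9 CPM per kb. The others among the 2 highest of each chromosome, at most 1 per overlap group, were lnc-UNK-1 at WBP2 (18.6 CPM per kb), lnc-NEFH-1 at NF2 (15.3), lnc-ITPRIPL2-2 (11.9), lnc-TMC7-2 (11.4), lnc-HSPA12B-2 (11.1), lnc-SERHL2-4 at RNU12 (11.0) and lnc-RNF24-2 at PANK2 (9.74). NF2 encodes the tumour suppressor merlin and PANK2 a mitochondrial pantothenate kinase. In the ATAC window of lnc-GRAP-1 the GFP libraries gave 31.4, 26.0 and 22.6 CPM, LMNA 29.6, 29.5 and 25.5, LMNB1 31.8, 27.9 and 27.5, and LMNB2 26.2, 24.1 and 28.8. All groups overlapped there, and the small RNA level of the same interval is given below. Across the 2290 members tested in both assays the small RNA and ATAC levels per kb had a Spearman correlation of 0.29, as a description, since overlapping members share reads in both assays.

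Short RNA from the median interval of the set was higher in the LMNB2 libraries than in GFP and close to GFP in the other lamins. This does not hold for the summed counts, which rest mostly on intervals that overlap an annotated RNA of another class. The share of small RNA counts on the set was 2.16% to 3.25% in GFP and 2.92% to 3.40% in LMNB2. It was 2.85% to 3.45% in LMNA and 2.78% to 3.17% in LMNB1, and all these ranges overlapped. The level of the set in a library was taken as the median, over the 2295 tested members, of how far log2 CPM lay from the mean of the GFP libraries. It was -0.01, 0.01 and -0.01 in the GFP libraries, 0.00, 0.00 and 0.03 with LMNA, 0.02, 0.02 and 0.00 with LMNB1, and 0.17, 0.20 and 0.20 with LMNB2. The 3 LMNB2 libraries lay above the other 9, which overlapped. On the scale of fitted log2 fold changes against GFP, the median of the members was 0.23 for LMNB2, with 70.6% of members positive, against a median of -0.04 over all 33893 tested features and 46.8% positive. For LMNA the median was -0.02 against -0.05 over all features, and for LMNB1 0.01 against -0.05. All 3 LMNB2 libraries lay above all 3 GFP libraries for 506 members (22.05%), against 12.1% of all tested features, and below them for 52 members (2.27%), against 10.2%. The member median minus that of all features, 0.27 for LMNB2, ranged from 0.14, with no filter on low counts, to 0.30, with DESeq2.

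**Figure D2:**
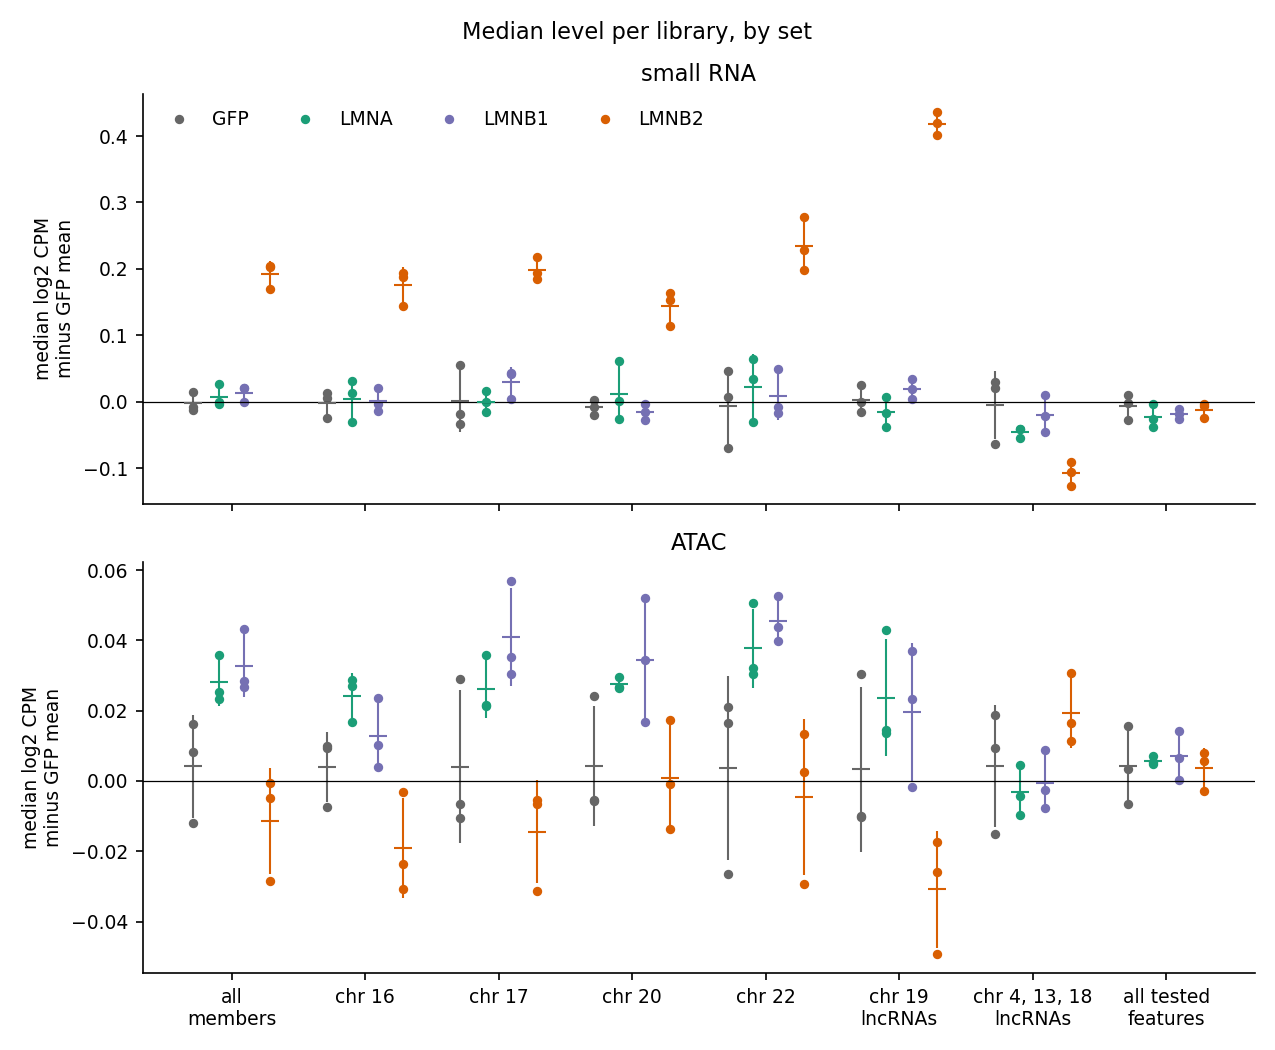
Median over intervals of the distance of log2 CPM from the GFP mean, for small RNA (top) and ATAC (bottom), by set of intervals. Points are libraries, bars the mean and SD of the 3 libraries of a group. In small RNA the LMNB2 libraries of the set (0.17 to 0.20) lie above the others, chromosome 19 lncRNAs lie higher and those of chromosomes 4, 13 and 18 lower.

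Single members passed the test for LMNB2 about as often as features in general. With the quasi-likelihood test of edgeR, adjusted after Benjamini and Hochberg over all tested features, 63 of 2295 members were called at an adjusted p under 0.05 for LMNB2 against GFP, in 43 overlap groups, and 473 had an unadjusted p under 0.05. This is 2.75% of members, near the background of 2.66% of all features. The directions were uneven: 61 members were higher (2.66%, background 1.91) and 2 were lower (0.0871%, background 0.752). The 61 higher members had log2 fold changes of 0.55 to 2.02 (median 1.17) and mean counts of 5.17 to 4536 per library (median 20.1). LMNB2 had the highest mean of the 4 groups in all 61. These counts hung on single libraries: without LMNB2 replicate 1, 2 or 3 they fell to 10, 3 and 0, without GFP replicate 2 to 25, without LMNA replicate 1 or 2 to 33 and 36, and without LMNB1 replicate 1 or 2 to 28 and 26, whereas without GFP replicate 3 they rose to 131. Calls over all features moved likewise, from 901 to 170, 51 and 60 without LMNB2 replicate 1, 2 or 3 and to 2101 without GFP replicate 3. Without GFP replicate 1 the count of members was 58, of which 40 were higher and 18 lower, and 1390 features were called in all. A fit of the GFP and LMNB2 libraries alone called 0 members and 21 features in all.

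The higher members that the naming rule picked (at most 8, of at least median level, by size of change) lay over genes of several kinds. The largest change was that of lnc-RFNG-1 (chr17:82047877-82051856), over RFNG, a glycosyltransferase that modifies Notch receptors, and GPS1, a subunit of the COP9 signalosome. It was at 0.0773, 0.0661 and 0.0732 CPM in GFP, 0.156, 0.104 and 0.140 with LMNA, 0.0785, 0.0918 and 0.0870 with LMNB1, and 0.314, 0.115 and 0.185 with LMNB2, from 9 to 52 counts per library. LMNB2 did not overlap GFP but overlapped LMNA. The log2 fold change for LMNB2 was 1.36 ± 0.34 (SE, edgeR adjusted p = 0.031), and 0.96 without LMNB2 replicate 1. Also on chromosome 17, lnc-SIRT7-1 (chr17:81911914-81916477) overlaps SIRT7, a nucleolar deacylase. It was at 0.0344, 0.132 and 0.0676 CPM in GFP and 0.187, 0.211 and 0.227 in LMNB2, with the LMNA and LMNB1 libraries between 0.0696 and 0.121. LMNB2 lay above the other 9 libraries, with a log2 fold change of 1.27 ± 0.33 (SE, edgeR adjusted p = 0.0363).

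HSALNG0114265 (chr17:7219913-7221654) lies over ACADVL, an enzyme of mitochondrial fatty acid oxidation, and DLG4, a synaptic scaffold protein. It was at 0.103, 0.0514 and 0.0507 CPM in GFP and 0.139, 0.173 and 0.192 in LMNB2, with a log2 fold change of 1.19 ± 0.35 (SE, edgeR adjusted p = 0.0487). The LMNA libraries (0.0819 to 0.162 CPM) and LMNB1 libraries (0.0870 to 0.145) overlapped both. NONHSAG021613.2 (chr17:36683471-36743198) overlaps no coding gene and was at 0.0687, 0.154 and 0.146 CPM in GFP and 0.302, 0.307 and 0.298 in LMNB2. Its other lamin libraries (0.0734 to 0.180 CPM) overlapped GFP and not LMNB2, and the log2 fold change was 1.18 ± 0.30 (SE, edgeR adjusted p = 0.0349).

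The lowest adjusted p among these 8 was at SRRM2, which encodes a spliceosome-associated protein of nuclear speckles. NONHSAG018357.2 (chr16:2757466-2758533, same strand as SRRM2) was at 0.258, 0.220 and 0.231 CPM in GFP, 0.386, 0.221 and 0.281 with LMNA, 0.320, 0.281 and 0.302 with LMNB1, and 0.446, 0.614 and 0.590 with LMNB2, from 30 to 96 counts per library. LMNB2 lay above the other 9 libraries, and the log2 fold change was 1.18 ± 0.20 (SE, edgeR adjusted p = 0.00861). NONHSAG022953.2 (chr17:80335544-80352452) is antisense to RNF213, an E3 ubiquitin ligase, and was at 0.283, 0.220 and 0.208 CPM in GFP and 0.531, 0.505 and 0.554 in LMNB2, above all LMNA and LMNB1 libraries (0.216 to 0.352). Its log2 fold change was 1.13 ± 0.20 (SE, edgeR adjusted p = 0.0104). NONHSAG018290.2 (chr16:1962036-1962550), at the ribosomal protein gene RPS2, holds the snoRNA SNORA10, which made up 90.6% of its level. It was at 1.65, 1.85 and 1.44 CPM in GFP and 2.76, 4.15 and 3.91 in LMNB2, with LMNA at 1.61 to 2.70 and LMNB1 at 2.13 to 2.50 CPM. LMNB2 lay above the other 9 libraries, and LMNA but not LMNB1 overlapped GFP. The log2 fold change was 1.13 ± 0.22 (SE, edgeR adjusted p = 0.0183). The eighth, lnc-METTL16-3 at MNT, is described with the joint test.

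**Figure D3:**
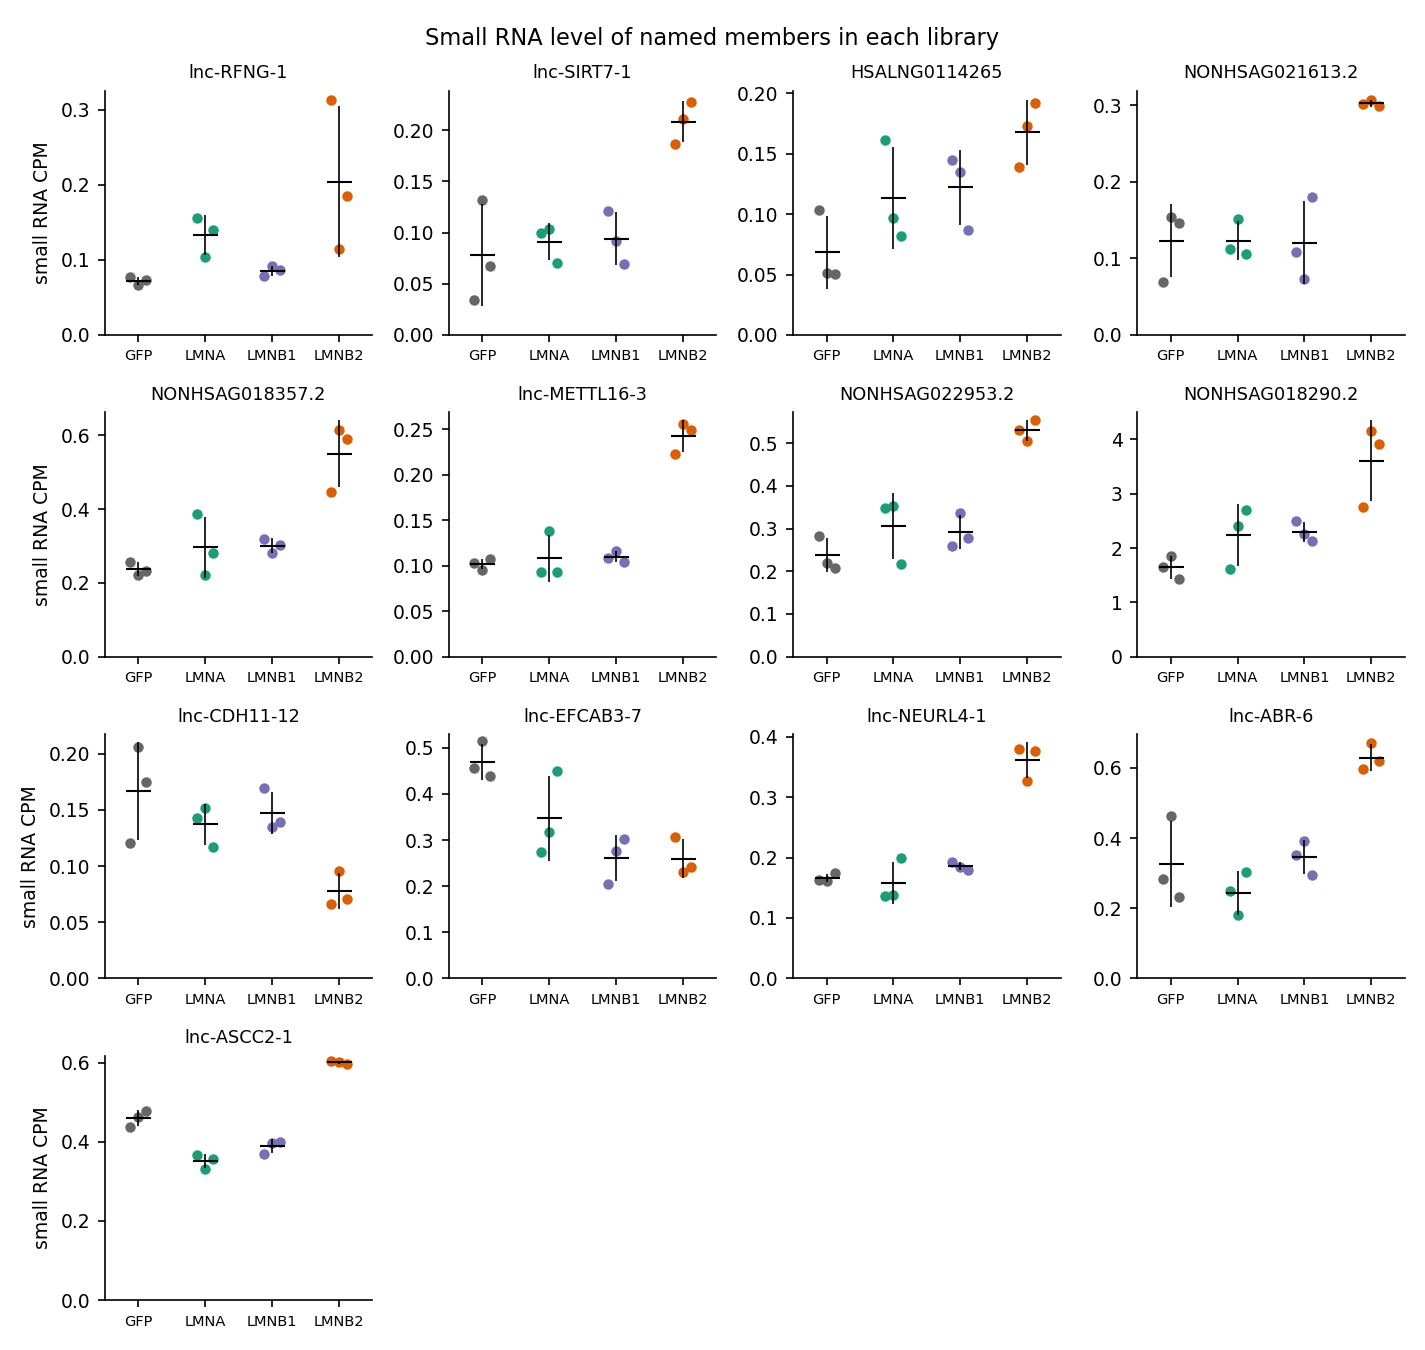
Small RNA CPM in each library (points) with the mean and SD of the 3 libraries of each group (bars), for the members named among the calls for LMNB2 against GFP and in the joint test. The LMNB2 mean is the highest of the 4 except in lnc-CDH11-12 and lnc-EFCAB3-7, where all LMNB2 points lie below GFP.

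The lower members were single intervals on chromosomes 16 and 17. lnc-CDH11-12 (chr16:65006837-65122071) overlaps CDH11, a cell adhesion cadherin. It was at 0.120, 0.206 and 0.175 CPM in GFP and 0.0663, 0.0960 and 0.0710 in LMNB2, with the other lamin libraries between 0.117 and 0.169. LMNB2 lay below the other 9 libraries, and LMNA and LMNB1 overlapped GFP. Its log2 fold change for LMNB2 was -1.002 ± 0.27 (SE, edgeR adjusted p = 0.0406). lnc-EFCAB3-7 (chr17:62065377-62065697) overlaps no coding gene and was at 0.455, 0.514 and 0.439 CPM in GFP, 0.205, 0.275 and 0.302 in LMNB1, and 0.308, 0.230 and 0.242 in LMNB2. GFP lay above both groups, and LMNA (0.274, 0.318 and 0.450 CPM) overlapped GFP. The log2 fold change was -0.82 ± 0.21 (SE) for LMNB2 (edgeR adjusted p = 0.041) and -0.82 ± 0.21 (SE) for LMNB1, which was not called (edgeR adjusted p = 0.703). The unadjusted edgeR p was near equal, 0.00086 for LMNB2 and 0.00083 for LMNB1, so only the adjustment within each comparison sets them apart.

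Among the other higher members, named here after their values were seen, several loci were represented by more than 1 interval. Coding genes overlapped 48 of the 61 (1704 of the 2295 tested members), 25 lay on the strand of the gene (876 of 2295) and 7 opposite (375 of 2295). An annotated RNA of another class overlapped 17 (571 of 2295). At the U3 locus lnc-GRAP-1 the mean small RNA level was 23.2 ± 3.85 (SD, n = 3) CPM in GFP, 28.1 ± 1.24 (SD, n = 3) in LMNA, 25.1 ± 1.06 (SD, n = 3) in LMNB1 and 39.5 ± 1.51 (SD, n = 3) in LMNB2, with a log2 fold change of 0.77 ± 0.20 (SE, edgeR adjusted p = 0.0488) for LMNB2. At RPL23, which hosts SNORA21, 4 intervals of lnc-C17orf98-1 had log2 fold changes of 0.76 to 0.80. NONHSAG022317.2, antisense to the splicing factor gene SRSF1, had a log2 fold change of 0.84. At H3-3B, which encodes histone H3.3, lnc-GALK1-2 had 0.66. At CENPX, which encodes a histone-fold protein of the Fanconi anaemia pathway, lnc-DCXR-2 had up to 1.40. lnc-AGRP-1 (chr16:67517926-67563722) had 0.86. It overlaps RIPOR1 and, near 1 of its ends, the start of the insulator protein gene CTCF on the opposite strand. lnc-DHRS7B-1, which starts head to head with TMEM11, had 4 intervals called at 1.23 to 1.77. The largest log2 fold change was that of lnc-GGT1-16 (2.02 ± 0.69, SE, edgeR adjusted p = 0.03), which had a mean of 5.17 counts per library.

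Overexpression of LMNA or LMNB1 gave no member that passed the test. For LMNA against GFP 0 of 2295 members were called by edgeR (background 0.0), with 168 at an unadjusted p under 0.05, and DESeq2 called 1. For LMNB1 0 members were called by edgeR (background 0.0384), with 135 at an unadjusted p under 0.05, and DESeq2 called 2. Without GFP replicate 3 the counts were 11 for LMNA and 2 for LMNB1, of 304 and 36 features called in all. Without GFP replicate 1 LMNA had 1, of 10 features called in all. LMNA libraries lay above all GFP libraries for 147 members (6.41%, background 4.16) and below them for 121 (5.27%, background 5.34). LMNB1 libraries did so for 139 (6.06%, background 4.76) and 102 (4.44%, background 5.29). The 61 members that were higher in LMNB2 were positive in 54 cases for LMNA (median 0.28) and in 59 for LMNB1 (median 0.27); these comparisons share the GFP libraries.

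Differences among the lamins were called for 30 members in 21 overlap groups by the joint quasi-likelihood test of edgeR (1.31% of members, background 1.93). An unadjusted p under 0.05 was found for 436. All 30 had their highest lamin level under LMNB2, and the lowest under LMNA in 19 and under LMNB1 in 11. Of the 30, 17 were also called for LMNB2 against GFP. The count was 4, 2 and 0 without LMNB2 replicate 1, 2 or 3, 11, 9 and 11 without LMNB1 replicate 1, 2 or 3, 15 without LMNA replicate 1, and 121 without GFP replicate 3.

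At GPS2, a subunit of the nuclear receptor corepressor complex, and NEURL4, lnc-NEURL4-1 (chr17:7312636-7319199, same strand) had the lowest joint p. Its values were 0.163, 0.162 and 0.175 CPM in GFP, 0.137, 0.138 and 0.199 with LMNA, 0.193, 0.184 and 0.180 with LMNB1, and 0.380, 0.326 and 0.377 with LMNB2. LMNB2 lay above the other 9 libraries (edgeR joint adjusted p = 0.00465), with a log2 fold change against GFP of 1.06 ± 0.20 (SE, edgeR adjusted p = 0.0116). Its ATAC window, which includes the GPS2 start region printed above, was at a mean of 9.81 ± 1.24 (SD, n = 3) CPM in GFP and 8.74 ± 0.183 (SD, n = 3) CPM in LMNB2, with a log2 fold change of -0.16 ± 0.08 (SE, edgeR adjusted p = 0.864). At MNT, which encodes a repressor that pairs with MAX, lnc-METTL16-3 (chr17:2387884-2401129) was at 0.103, 0.0955 and 0.107 CPM in GFP, 0.0933, 0.138 and 0.0936 with LMNA, 0.109, 0.116 and 0.104 with LMNB1, and 0.223, 0.256 and 0.249 with LMNB2. LMNB2 again lay above the other 9 (edgeR joint adjusted p = 0.00825, log2 fold change against GFP 1.15 ± 0.23, SE, edgeR adjusted p = 0.0154).

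lnc-ABR-6 (chr17:823662-930076), on the strand of NXN, which encodes the redox protein nucleoredoxin, was at 0.283, 0.463 and 0.231 CPM in GFP, 0.249, 0.179 and 0.304 with LMNA, 0.350, 0.392 and 0.296 with LMNB1, and 0.597, 0.672 and 0.618 with LMNB2. LMNA and LMNB1 overlapped GFP and LMNB2 lay above all 9 (edgeR joint adjusted p = 0.0101). lnc-ASCC2-1 (chr22:29967658-30102170), antisense to MTMR3, which encodes a phosphoinositide phosphatase, differed in kind. It was at 0.438, 0.463 and 0.479 CPM in GFP, 0.367, 0.331 and 0.357 with LMNA, 0.368, 0.398 and 0.400 with LMNB1, and 0.603, 0.601 and 0.597 with LMNB2. GFP lay between LMNB2 and the other lamins without overlap (edgeR joint adjusted p = 0.0125). Against GFP its log2 fold changes of -0.38 ± 0.15 (SE) for LMNA, -0.24 ± 0.14 (SE) for LMNB1 and 0.37 ± 0.14 (SE) for LMNB2 did not pass the test (edgeR adjusted p = 0.895, 0.861 and 0.148).

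All 4 chromosomes had a positive median in the LMNB2 small RNA libraries. Counted by interval, the share of members called higher, against 1.91% of all features, was largest on chromosome 17 of these 4 chromosomes. The median log2 fold change for LMNB2 was 0.22 on chromosome 16 (654 tested members), 0.24 on chromosome 17 (1044), 0.18 on chromosome 20 (239) and 0.30 on chromosome 22 (358). Calls were 42 higher (4.02%) and 1 lower on chromosome 17, which holds 1044 of the 2295 tested members, 10 higher (1.53%) and 1 lower on chromosome 16, 5 higher (2.09%) on chromosome 20 and 4 higher (1.12%) on chromosome 22. Many calls on chromosome 17 are overlapping intervals that share reads, such as those of lnc-C17orf98-1 and of lnc-DHRS7B-1. Between 0 and 10 Mb of that chromosome 11 calls fell into 7 overlap groups, and between 80 and 90 Mb 11 fell into 6. In bins of 10 Mb with at least 20 tested members, 26 of 28 medians were positive for LMNB2 (range -0.05 to 0.49), 10 for LMNA and 15 for LMNB1. The lncRNAs of chromosome 19, the chromosome with most coding genes per Mb (24.8), had a higher median of 0.51 with 138 higher and 0 lower calls among 948 tested. Those of chromosomes 4, 13 and 18, which have fewest (2.96 to 4.05), had a median of -0.16 with 11 higher and 11 lower calls among 1106. In the LMNB2 libraries the median level was 0.17 to 0.20 for the set, 0.40 to 0.44 for chromosome 19 and -0.13 to -0.09 for chromosomes 4, 13 and 18. The libraries of the 3 sets did not overlap, which is given as a description.

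Across the 23 chromosomes other than Y, the median small RNA log2 fold change of lncRNA intervals followed the density of coding genes with a Spearman correlation of 0.78 for LMNB2, 0.52 for LMNA and 0.43 for LMNB1. Without chromosomes 16, 17, 19, 20 and 22 the values over 18 chromosomes were 0.61, 0.25 and 0.28. These are descriptions: all chromosomes share the same libraries and the 3 comparisons share GFP. By gene density chromosomes 17, 16, 22 and 20 ranked 2, 4, 5 and 6 of 23. Chromosome 11, which ranked 3, had a median of -0.01 for LMNB2, below all 4, and chromosome 21, which ranked 18 by density, had 0.21, within their range.

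**Figure D4:**
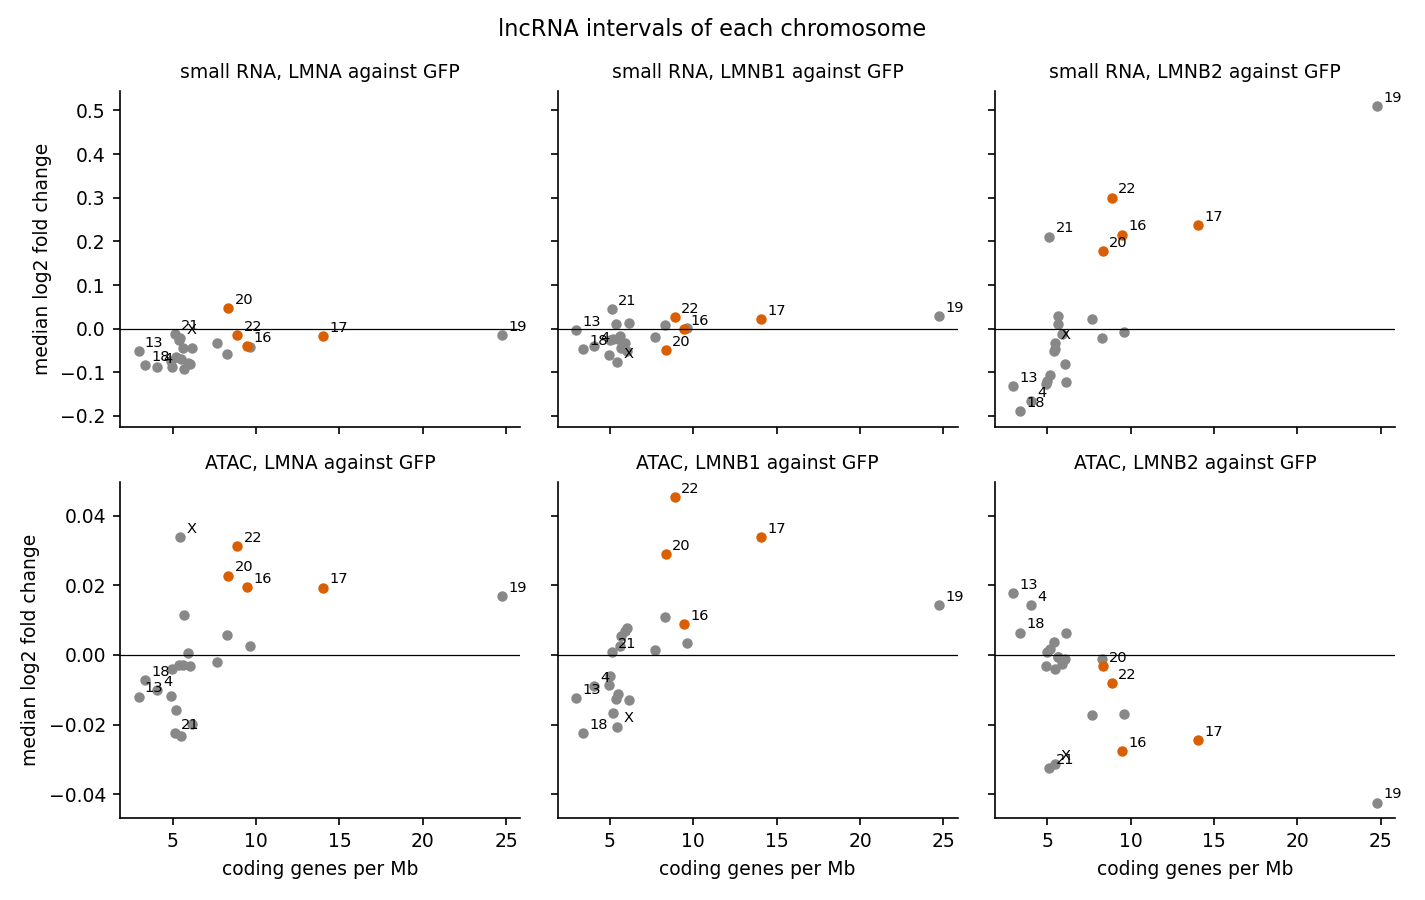
Median log2 fold change against GFP of the tested lncRNA intervals of each chromosome (points) against its coding genes per Mb, for small RNA (top) and ATAC (bottom). Chromosomes 16, 17, 20 and 22 are in orange, and for LMNB2 they lie at 0.18 to 0.30 in small RNA and at -0.03 to 0.00 in ATAC.

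Within the set the LMNB2 shift was found in each kind of interval and varied with position relative to coding genes. Members overlapping a coding gene had a median log2 fold change of 0.26 (1704 tested, 48 higher and 1 lower called), and members outside coding genes 0.12 (591 tested, 13 higher and 1 lower). The medians were 0.24 where the coding gene was on the same strand (876 tested), 0.28 where it was on the opposite strand (375) and 0.31 where genes lay on both strands (127). Members over a coding promoter window had a median of 0.31 (749 tested) and the remaining 1546 a median of 0.18, and 29 of the 63 called members (46.0%) lay over such a window, against 32.6% of tested members. Members that overlap an annotated RNA of another class had a median of 0.21 (571 tested) and those without one 0.23 (1724). The 429 with neither a coding gene nor such an RNA had 0.12. By catalogue the medians were 0.23 for lnc-, 0.23 for NONHSAG and 0.26 for HSALNG names. By width they were 0.29 under 1 kb, 0.33 from 1 to 5 kb, 0.24 from 5 to 20 kb and 0.17 from 20 to 200 kb. By level they ran from 0.31 in the lowest quartile of members to 0.17 in the highest. Since strand was not stated for the counting, reads of a member and of an overlapping coding gene cannot be told apart. In such bulk libraries a change in RNA per cell and a change in the share of cells cannot be told apart either.

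Chromatin accessibility of the same intervals differed little between the groups. By edgeR 0 members were called in either direction for LMNA (background 0.000611, all higher), for LMNB1 (background 0.00305, of which 0.00183 higher and 0.00122 lower), for LMNB2 (background 0.00244, of which 0.00122 higher and 0.00122 lower) or in the joint test (background 0.0916), with 484, 624, 640 and 432 of 12349 windows at an unadjusted p under 0.05. DESeq2 called 0 members in the 3 comparisons with GFP and 3 in the joint test. Without GFP replicate 3 edgeR called 2 for LMNA, 1 for LMNB1 and 5 in the joint test. The joint test gave 3 without GFP replicate 1 and 6 without LMNB1 replicate 3. The median log2 fold change of the members was 0.02 for LMNA, 0.03 for LMNB1 and -0.02 for LMNB2, against 0.00 over all 163786 tested windows in each case. With scaling by total counts only, the LMNB2 value was 0.09, against 0.11 over all windows. By library the median level was 0.02, -0.01 and 0.01 in GFP, 0.03, 0.04 and 0.02 with LMNA, 0.03, 0.04 and 0.03 with LMNB1, and 0.00, -0.03 and 0.00 with LMNB2. The LMNA and LMNB1 libraries lay just above the GFP libraries without overlap, and LMNB2 overlapped GFP.

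These small ATAC shifts were spread along the chromosomes. Of 30 bins of 10 Mb, 28 had a positive median for LMNA, 27 for LMNB1 and 9 for LMNB2. Over the 23 chromosomes the Spearman correlation with coding gene density was 0.66 for LMNA, 0.77 for LMNB1 and -0.60 for LMNB2, as a description. In the quartile of members with the highest ATAC level the medians were 0.03 for LMNA, 0.03 for LMNB1 and -0.03 for LMNB2, and in the lowest quartile -0.02, 0.00 and -0.03. LMNA libraries lay above all GFP libraries at 657 windows (5.32%, background 4.81) and below them at 456 (3.69%, background 4.74). LMNB1 libraries lay above at 692 (5.60%, background 4.62) and below at 391 (3.17%, background 3.84). LMNB2 libraries lay above at 490 (3.97%, background 5.59) and below at 690 (5.59%, background 4.72). In flanks of 500, 5000 and 50000 bp around the windows, the library ranges of the 4 groups overlapped. The flank values are not distances from the GFP mean. For flanks of 500 bp they were -0.02 ± 0.03 (SD, n = 3) in GFP and 0.00 ± 0.01 (SD, n = 3) in LMNB2.

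None of the members higher in LMNB2 small RNA was called by ATAC. Of the 61, 19 had a positive ATAC log2 fold change for LMNB2, with a median of -0.03 and a range of -0.99 to 0.35. Positive values were found in 44.6% of all 12349 ATAC windows of the set and in 41.9% of those over a coding gene. In the quartile of highest ATAC level it was 35.4%. These windows include members not tested in small RNA, so they are not a matched background. The lowest edgeR adjusted p among the 61 was 0.853, and 7 of the 61 had an unadjusted p under 0.05, against 640 of all 12349 windows. Across the 2290 members tested in both assays the fold changes had Spearman correlations of 0.04 for LMNA, 0.07 for LMNB1 and -0.03 for LMNB2. The SRRM2 interval NONHSAG018357.2, a window of low ATAC level, lay well below the median of the 61. It was at 0.130 ± 0.00204 (SD, n = 3) CPM by ATAC in GFP and 0.0827 ± 0.013 (SD, n = 3) in LMNB2 (log2 fold change -0.60 ± 0.34, SE, edgeR adjusted p = 0.886).

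**Figure D5:**
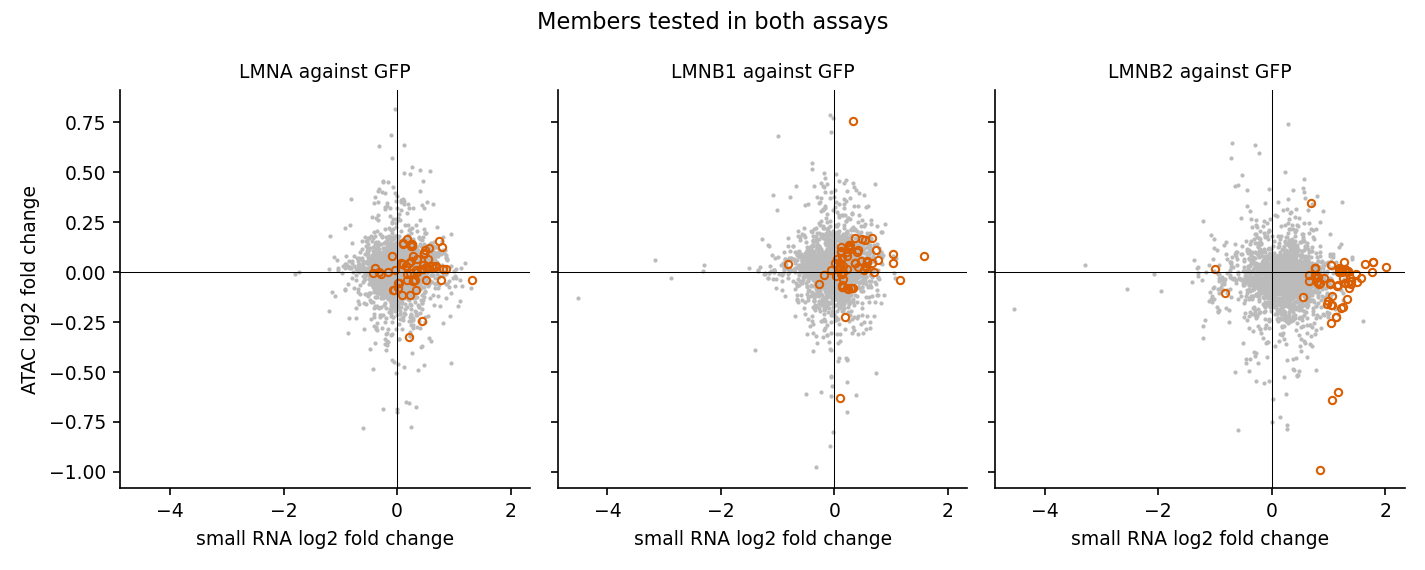
ATAC against small RNA log2 fold change of the members tested in both assays, for each lamin against GFP (grey points), with the members called in small RNA for LMNB2 as orange rings. In the LMNB2 panel the rings lie to the right, with log2 fold changes of 0.55 to 2.02 for the 61 higher members, and on both sides of 0 by ATAC.

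Members named after neighbouring genes of 4 kinds were followed as lists. Of 21 members named after genes of RNA polymerase III and its factors, 3 were tested in small RNA and 0 called. Their medians were -0.21 for LMNA, 0.10 for LMNB1 and 0.52 for LMNB2. An interval of lnc-POLR3E-3 (chr16:22481939-22491416) was at 0.0687, 0.0735 and 0.169 CPM in GFP and 0.187, 0.179 and 0.192 in LMNB2 without overlap (log2 fold change 0.71 ± 0.30, SE, edgeR adjusted p = 0.165). Another interval of that name (chr16:21447488-21456964) gave 0.52 ± 0.28 for LMNB2 (SE, edgeR adjusted p = 0.27), and there LMNB2 overlapped GFP. The remaining tested member, lnc-GTF3C1-4, gave -0.13 ± 0.35 for LMNB2 (SE, edgeR adjusted p = 0.853). Of 28 members named after genes of the nuclear envelope, pore and transport, 19 were tested and 0 called. Their small RNA medians were -0.14, 0.04 and -0.12 for LMNA, LMNB1 and LMNB2. The 28 carry the names of only 4 of the 8 genes listed. Several of the tested ones are overlapping intervals of lnc-KPNA2-6 that share reads, so these medians do not describe 19 separate loci. lnc-NUP88-2 at the nuclear pore gene NUP88 was at 0.558, 0.691 and 0.558 CPM in GFP and 0.724, 0.678 and 0.682 in LMNB2, which overlapped (log2 fold change 0.20 ± 0.15, SE, edgeR adjusted p = 0.462). An interval of lnc-KPNA2-6 near the importin gene KPNA2 gave -0.04 ± 0.21 (SE, edgeR adjusted p = 0.934).

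Of 39 members named after chromatin regulators 3 were tested and 0 called, with medians of 0.23, -0.11 and 0.13. Of 35 named after cell division genes 5 were tested and 0 called, with medians of -0.29, 0.17 and 0.78. lnc-SMARCE1-1, which overlaps a subunit gene of the SWI/SNF remodeller, gave -0.15 ± 0.25 (SE, edgeR adjusted p = 0.77) for LMNB2. lnc-AURKB-4, named after the mitotic kinase gene AURKB, was at 0.0515, 0.0441 and 0.0451 CPM in GFP and 0.0905, 0.0960 and 0.149 in LMNB2 without overlap, from 6 to 21 counts per library in these groups. Its log2 fold change of 1.06 ± 0.40 (SE) did not pass the test (edgeR adjusted p = 0.103). lnc-CDC6-3, named after the replication licensing gene CDC6, gave 0.78 ± 0.37 (SE, edgeR adjusted p = 0.181). The members of higher level picked from this list were near 0 for LMNB2. lnc-PCNA-1 gave 0.10 ± 0.32 (SE, edgeR adjusted p = 0.883) and lnc-GINS2-2 gave 0.07 ± 0.32 (SE, edgeR adjusted p = 0.921). By ATAC all members of the 4 lists were tested and 0 were called for any lamin.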

How the data were processed

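Raw counts were deposited by the authors for each assay, 1 table with whole-number counts for 12 libraries (per the file headers and values). The genome was GRCh38 per the submitters' processing notes; aligner, counter, use of strand, treatment of reads that map to several places and of duplicates are not given in the sources used here. Starts are counted from 1 (1124 of 3200 comparable RefSeq small RNA genes matched, extended by 25 bp, when the deposited starts were read as 0-based, 19 otherwise).

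For each assay 1 model with 4 group means covered all 12 libraries (edgeR 4.0.16 under R 4.3.3, filterByExpr, TMM scaling, robust quasi-likelihood tests). Benjamini-Hochberg adjustment ran over 33893 small RNA features or 163786 ATAC windows. Calls have an adjusted p under 0.05. Fold changes use a prior count of 2, library levels log2(CPM + 0.05), and DESeq2 1.42.0 was an alternative, as were other scalings, filters, a replicate block and leaving out libraries. Coding genes and promoters came from RefSeq tables.

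Members and gene lists were chosen with earlier results of these data known. Named members were, at most 1 per overlap group: up to 8 calls per assay, lamin and direction by size of change, separated from GFP and of at least median level; the 2 highest levels per chromosome and assay (per kb for ATAC); up to 4 joint calls by p; and up to 4 per list by level. Others were chosen after their values were seen, and some members are not reported here. Tests were checked on simulated data.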

Additional observations from a re-analysis of the deposited data

Results flagged for a closer look

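Of the 30 members called in small RNA by edgeR's joint test (1.31% of members, background 1.93), the 4 of lowest p are given, at most 1 per overlap group. This quasi-likelihood test (Benjamini-Hochberg adjustment) compares the 3 lamin effects with each other. The adjusted p was 0.00465 for lnc-NEURL4-1 at GPS2 and NEURL4, 0.00825 for lnc-METTL16-3 at MNT, 0.0101 for lnc-ABR-6 at NXN and 0.0125 for lnc-ASCC2-1 at MTMR3. LMNB2 had the highest level in each, in 3 of 3 libraries. With GFP replicate 3 and LMNA replicate 3 left out, chosen after seeing the data, the 4 values were 0.00065, 0.0047, 0.000329 and 0.00582. Over the other filters, scalings, tests and left-out libraries they ranged from 0.000472 to 0.065, 0.00131 to 0.0917, 2.59e-06 to 0.107 and 0.00143 to 0.146.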

How the results depend on the processing

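Counts of called members depended on the processing, none of the member fold changes recomputed changed direction, and the LMNB2 small RNA median of the members stayed above that of all features. For LMNB2 in small RNA the count of 63 became 27 with total counts only, 112 with no count filter, 41 with the replicate block and 0 when only the libraries compared were fitted, and ranged from 0 to 131 when 1 library was left out. Medians near 0 changed sign: with total counts only, the small RNA median over all features was 0.19 for LMNB2 and 0.11 for LMNB1 on the log2 scale, against -0.04 and -0.05, the ATAC median over all windows was 0.09, 0.19 and 0.11 for LMNA, LMNB1 and LMNB2, against 0.00 each, and that of the members for LMNB2 was 0.09, against -0.02. Without GFP replicate 3 the LMNA small RNA median of the members was 0.07, against -0.02. The joint count of 30 became 90 with no count filter and 222 with only the lamin libraries, and ranged from 0 to 121. LMNA gave 9 with no count filter, 1 by DESeq2 and 0 to 11 without 1 library; LMNB1 gave 9, 2 and 0 to 2. By ATAC total counts only gave 1 for LMNA, 7 for LMNB1, 1 for LMNB2 and 1 in the joint test; only the libraries compared gave 2 for LMNB2 and 6 in the joint test, for which DESeq2 and the replicate block each gave 3. Without 1 library ATAC counts were 0 to 2 for LMNA, 0 to 1 for LMNB1 and 0 to 6 in the joint test. With GFP replicate 3 and LMNA replicate 3 both left out, added after seeing the data, small RNA counts were 145 (LMNB2), 15 (LMNA), 5 (LMNB1) and 127 (joint). Calls over all features were then 2506 for LMNB2, 305 for LMNA and 81 for LMNB1. The causes were not tested. Of the 14 results for members named from calls, 14 lost the call without LMNB2 replicate 3, 12 without LMNB2 replicate 2, 8 without LMNB2 replicate 1 and 10 when GFP and LMNB2 or the lamins were fitted alone. The replicate numbers were not taken to pair the libraries, since in 0 of 6 comparisons did every same-numbered pair correlate above 0.1 (range -0.09 to 0.28). In 10 of 18 cases a lamin library correlated best with the GFP library of its own number, among 3, including all 3 small RNA libraries of LMNA (0.07, 0.26 and 0.25). The median tested member had 16.8 counts per small RNA library, which limits the precision of its fold change.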

Other observations

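Members far above the other libraries in GFP replicate 3 or LMNA replicate 3, chosen after their values were seen, are given here as values. lnc-ZSCAN10-4 (chr16:3156946-3158767), which holds the lysine tRNA gene tRNA-Lys-CTT-3-1, was at 1.61, 1.54 and 13.4 CPM in GFP and 2.57, 2.03 and 15.3 in LMNA, against 1.39 to 2.07 in the 6 LMNB1 and LMNB2 libraries. lnc-SNX20-9 (chr16:50857286-50941297), which holds a 5S ribosomal RNA-related sequence, was at 2.70, 1.71 and 23.3 CPM in GFP and 7.17, 3.49 and 11.9 in LMNA, against 1.60 to 2.64 in the others. lnc-PIK3R6-1 (chr17:8802712-8867702) had 5, 5 and 245 counts in GFP and 10, 9 and 94 in LMNA. NONHSAG034162.2 at PPARA, the gene of a nuclear receptor of lipid metabolism, had 4, 5 and 586 counts in GFP and 83, 2 and 727 in LMNA in 1 of its intervals (chr22:46171308-46198435), against 4 to 9 in the LMNB1 and LMNB2 libraries. None of these members was called. Their log2 fold changes for LMNB2 against GFP, -1.95, -2.07, -3.29 and -4.55, rest on GFP replicate 3.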
